A study of Mus musculus with 6 samples.

Results

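Collagen chain genes were examined in mouse teratomas, growths of many tissues at once that arise from pluripotent stem cells placed under the skin of an immunodeficient animal. The chains were taken as every gene name on the array written as Col, a collagen number, the letter a and a chain number, which gave 44 genes on 91 probes. Of these, 41 genes had signal clear enough to test, among 22946 genes tested and 37001 gene names on the array. The arrays compared 2 groups of BALB/c nude mice with mESC-derived tumours. In the miR-124a group, 3 tumours were injected with a miR-124a-3p mimic, a synthetic copy of a microRNA abundant in neurons. In the control group, 3 tumours received a miRNA negative control. Both groups had the same carrier, Atelogen QG, at 15 µg in 100 µL once every 3 days until day 28, starting when the tumours were palpable, about 10 days after the stem cells were injected. Each tumour was cut into 2 pieces and RNA was taken from 1 of them, so other regions of the tumour, and differences between its regions, were not sampled. The host is a mouse too, and these arrays do not separate transcripts of host vessels and connective tissue from those of the tumour. The age and sex of the mice and the name of the stem cell line are not given in the sources used here.

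Collagens are the main fibrous proteins of connective tissue. Their chains wind into triple helices, and the helix needs a glycine at regular intervals, a pattern known as the Gly-X-Y repeat. Fibrillar collagens build the fibres of skin, tendon, bone and cartilage, and network collagens make the sheets of basement membranes. FACIT collagens (fibril-associated collagens with interrupted triple helices) sit on the surface of fibrils, and beaded collagen VI forms microfilaments around cells, among them muscle fibres. Transmembrane collagens are anchored in the plasma membrane. The multiplexins, collagens XV and XVIII, carry long interrupted helices and lie at basement membranes.

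The repeat can be read in some of the array's own 60-base probes, shown here because it is the feature that defines the family. A pair of G at every ninth base was found along the whole probe in 4 of the 91 chain probes (4.4%), against 4 of 56514 other probes (0.00708%). Capitals mark the glycine codons. The Col15a1 probe, which gave that gene's value except where its probes were averaged, lies at chr4:47283786-47283845 (mm9, plus strand). The Col5a3 and Col6a3 probes span chr9:20590066-20590795 and chr1:92689602-92690594 (mm9, minus strand), which is longer than the probe, and each stands beside a brighter probe that gave its gene's value.
Col15a1: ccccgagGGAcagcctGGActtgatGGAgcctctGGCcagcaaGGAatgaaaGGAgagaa
Col5a3: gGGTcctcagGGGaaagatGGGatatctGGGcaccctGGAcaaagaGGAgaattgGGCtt
Col6a3: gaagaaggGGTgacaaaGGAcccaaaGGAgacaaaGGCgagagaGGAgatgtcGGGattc
The array annotation does not say whether a probe lies in coding sequence or in a UTR.

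Levels below are log2 of the processed spot intensity minus the log2 of the array's 75th percentile, so 0 is the 75th percentile of the array and 1 unit is a doubling. Differences are the mean of the 3 miR-124a tumours minus the mean of the 3 control tumours on that log2 scale, with the standard error from limma, and p-values were adjusted over all 22946 genes (Benjamini-Hochberg). Levels of different genes come from different probes and cannot be set against each other. In whole-tumour RNA, fewer cells of a type and less RNA per cell cannot be told apart.

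Across the family, 3 of 41 tested chains fell with miR-124a (7.32%), against 2.75% of all genes tested that fell and 3.23% that changed in either direction. They were Col19a1, Col15a1 and Col26a1. In limma 0 of 41 rose, against 0.488% of all genes. At an unadjusted p under 0.05, 0 chains were higher with miR-124a, against 11.4% of all genes. At an unadjusted p under 0.05, 12 of 41 chains (29.3%) differed, all lower with miR-124a, against 27.3% of all genes in either direction and 15.9% lower. Differences were below 0 for 28 of 41 chains (68.3%), against 50.3% of all genes. The median difference was -0.21 over the chains and -0.00 over all genes. The groups did not overlap for 15 of 41 chains (36.6%), 13 lower and 2 higher with miR-124a, against 35.6% of all genes, 20.6% lower and 15.0% higher. Leaving out any 1 of the 6 tumours left 0 chains past the adjusted threshold in limma. In these fits 8 to 12 of 41 chains had an unadjusted p under 0.05, against 17.9% to 26.7% of all genes.

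**Figure D1:**
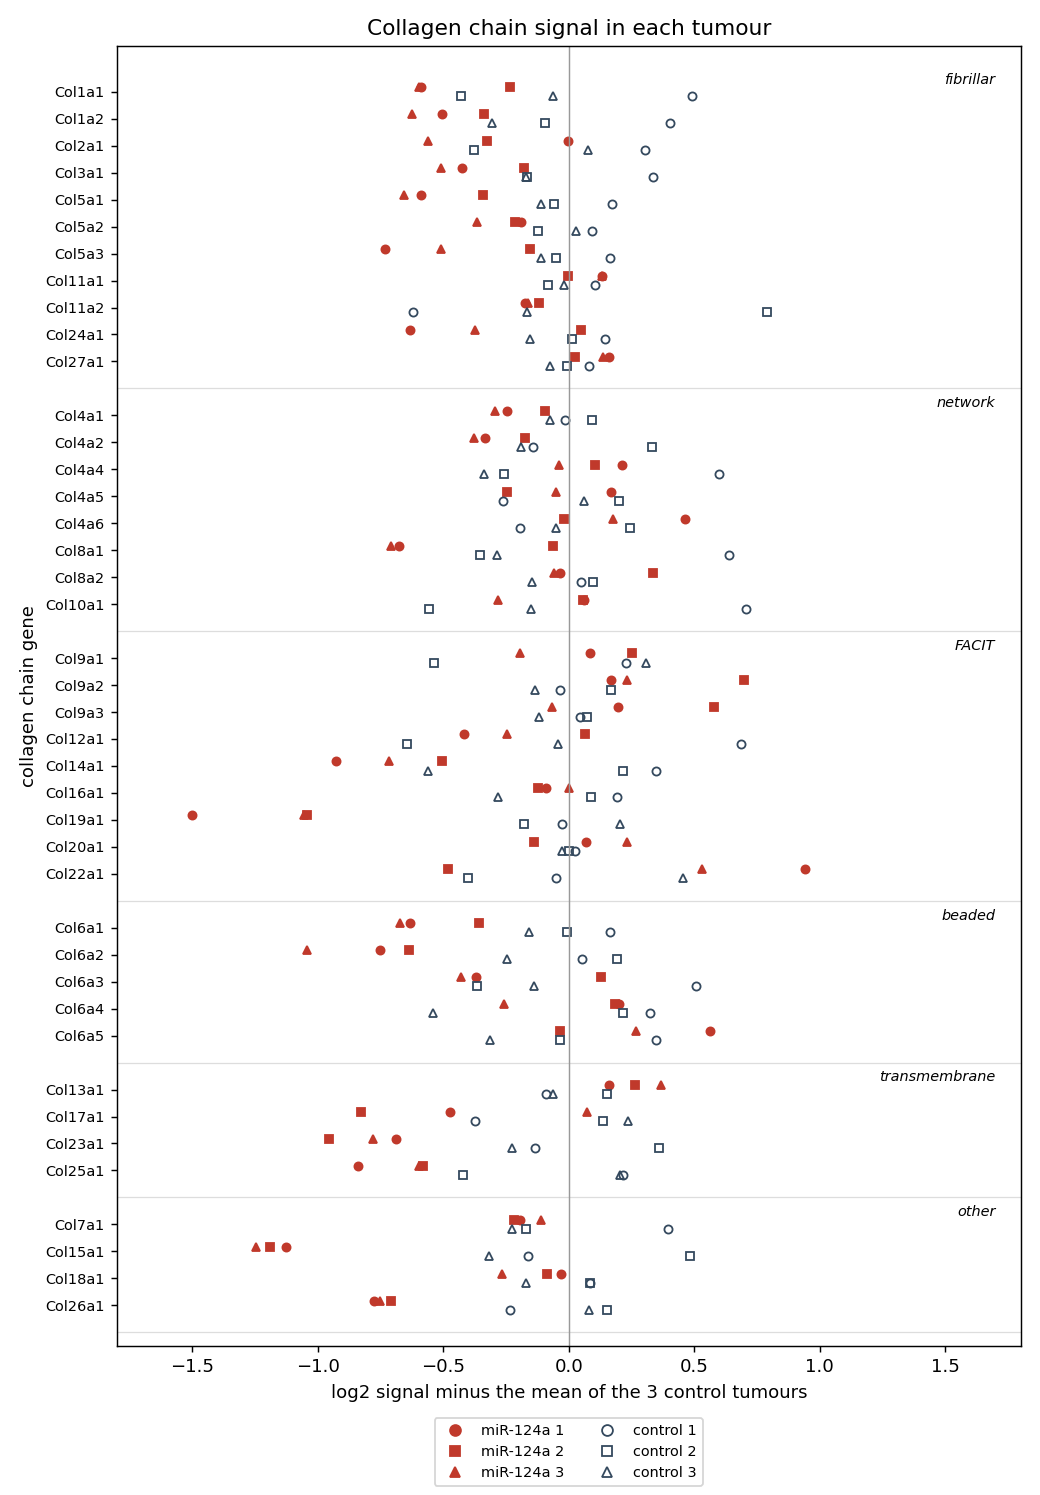
Signal of each of the 41 tested collagen chains in every tumour, on the log2 scale, minus the mean of the 3 control tumours (x axis), with chains grouped by structural type (y axis). Filled red symbols are miR-124a tumours 1 to 3 and open blue symbols control tumours 1 to 3; the red symbols of Col19a1, Col15a1 and Col26a1 all lie left of their open symbols, and control 1 is the rightmost point for 8 of 11 fibrillar chains.

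Col19a1 encodes the chain of collagen XIX, a FACIT-like collagen that in the mouse embryo is made in differentiating muscle. Its levels were -2.76, -2.31 and -2.32 in miR-124a tumours 1 to 3, against -1.29, -1.44 and -1.06 in control tumours 1 to 3. All miR-124a tumours lay below all control tumours, with a gap wider than the spread inside either group. The difference was -1.20 ± 0.17 (SE, n = 3 each; limma, adjusted p = 0.0279), which is 2.30-fold lower with miR-124a. A dimmer probe of the gene cleared background in 0 of 3 miR-124a tumours and in 3 of 3 control tumours, and gave at least a 1.75-fold lower signal with miR-124a, a bound set by the floor of the signal. The difference shrank to -0.69 under normexp and stayed past the threshold. Here normexp means a model of signal plus background, an offset of 50 intensity units and quantile scaling between arrays. Such an offset by itself shrinks the differences of dim probes. With quantile scaling alone the Col19a1 difference was -1.21. The brighter probe lies at chr1:24271315-24271374 (mm9, minus strand). Col9a1, another FACIT chain and the neighbouring gene on chromosome 1, had a difference of 0.05 ± 0.25 (adjusted p = 0.917).

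Col15a1 encodes the chain of collagen XV, which lies at basement membranes of muscle fibres, nerves and small vessels. The glycine-repeat probe printed above read -2.30, -2.36 and -2.41 in miR-124a tumours 1 to 3, against -1.33, -0.69 and -1.49 in control tumours 1 to 3. The miR-124a tumours were close together and all lower than any control tumour, and control 2 was the highest. The difference was -1.19 ± 0.21 (SE, n = 3 each; limma, adjusted p = 0.0446), 2.28-fold lower with miR-124a. A second probe gave -1.13. The difference was -0.95 without control 2 and -0.76 with normexp, against -1.35 without control 3. The other multiplexin, Col18a1, whose product releases the fragment endostatin, had a difference of -0.13 ± 0.12 (adjusted p = 0.514), and its groups overlapped.

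Col26a1 encodes collagen XXVI, first described in mouse testis and ovary. Its levels were 1.35, 1.42 and 1.37 in miR-124a tumours 1 to 3, against 1.89, 2.28 and 2.20 in control tumours 1 to 3. The groups were separate, and the miR-124a tumours differed among themselves by less than the control tumours did. The difference was -0.75 ± 0.12 (SE, n = 3 each; limma, adjusted p = 0.0377), 1.68-fold lower with miR-124a. All 3 tested probes of the gene gave differences between -0.86 and -0.75. The probe used lies at chr5:137217629-137217688 (mm9, minus strand).

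The 3 chains that fell kept a negative difference under all 16 other ways of processing tried. They passed the adjusted threshold under 7 of these and lost it when any 1 tumour was left out, where their unadjusted p ranged between 0.0002 and 0.0051.

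The 11 fibrillar chains were all tested, and in limma 0 passed the adjusted threshold in either direction, with the lowest adjusted p at 0.0770. Of these, 9 had a negative difference and 2 a positive one, the median was -0.32, and 4 had an unadjusted p under 0.05, all lower with miR-124a. Over all genes, 50.3% had a negative difference and 15.9% were lower at that unadjusted p. Collagen V chains nucleate fibrils and set their width. Col5a1 read 1.73, 1.98 and 1.66 in miR-124a tumours 1 to 3, against 2.49, 2.26 and 2.20 in control tumours 1 to 3, so its groups did not overlap. Its difference was -0.53 ± 0.13 (SE, n = 3 each; limma, adjusted p = 0.0770). The partner chains Col5a2 and Col5a3 had differences of -0.26 ± 0.10 (adjusted p = 0.173) and -0.46 ± 0.17 (adjusted p = 0.148), and neither overlapped between groups.

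Collagens I and III are the bulk collagens of bone, skin, tendon and vessel walls. Col1a1 read 5.17, 5.53 and 5.16 in miR-124a tumours 1 to 3, against 6.25, 5.33 and 5.70 in control tumours 1 to 3, with a difference of -0.47 ± 0.25 (adjusted p = 0.265). Col1a2 read 6.51, 6.68 and 6.39 with miR-124a, against 7.42, 6.92 and 6.71 in control tumours, with a difference of -0.49 ± 0.20 (adjusted p = 0.173). Col3a1 read 5.26, 5.51 and 5.18 with miR-124a, against 6.02, 5.52 and 5.52 in control tumours, with a difference of -0.37 ± 0.17 (adjusted p = 0.224). In all of them control 1 stood highest, and the groups overlapped for Col1a1 only. Without control 1 the differences were -0.23, -0.29 and -0.20 for Col1a1, Col1a2 and Col3a1, and under normexp they were -0.25, -0.21 and -0.17. Quantile scaling alone, which is part of the normexp setting, gave -0.26, -0.25 and -0.17. The 3 tested probes of Col1a2 spread between -0.49 and -0.02, those of Col1a1 between -0.47 and -0.32.

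Collagens II and XI form the fibrils of cartilage. Col2a1 had a difference of -0.30 ± 0.22 (adjusted p = 0.415), Col11a1 0.09 ± 0.10 (adjusted p = 0.588) and Col11a2 -0.15 ± 0.34 (adjusted p = 0.799), and all overlapped between groups. The tested probes of Col11a1 disagreed in sign, at -0.08 and 0.09. Col24a1 and Col27a1, minor fibrillar chains, had differences of -0.32 ± 0.19 (adjusted p = 0.316) and 0.11 ± 0.09 (adjusted p = 0.477). None of these chains passed the threshold.

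Among the 9 network chains, 8 were tested and in limma 0 passed the adjusted threshold, with 0 at an unadjusted p under 0.05. Their median difference was -0.05, with 5 negative and 3 positive. Col4a1 and Col4a2 encode the chains of the common basement membrane collagen IV and lie head to head, with 78 bases of their RefSeq promoter windows (GRCm38.p6) in common. Col4a1 read 3.05, 3.20 and 3.00 in miR-124a tumours 1 to 3, against 3.28, 3.38 and 3.22 in control tumours 1 to 3. Its groups were separate by a narrow margin, and the difference was -0.21 ± 0.10 (adjusted p = 0.226). Col4a2 read 1.72, 1.88 and 1.67 with miR-124a, against 1.91, 2.38 and 1.86 in control tumours, with a difference of -0.30 ± 0.16 (adjusted p = 0.282).

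The collagen IV chains of specialised membranes showed no call. Col4a4, Col4a5 and Col4a6 had differences of 0.09 ± 0.26 (adjusted p = 0.839), -0.04 ± 0.16 (adjusted p = 0.885) and 0.21 ± 0.17 (adjusted p = 0.463), and Col4a3 was well above background on 0 of 6 arrays. Col8a1, a chain of the short collagen VIII found in vessel walls and the cornea, read 2.25, 2.87 and 2.22 with miR-124a, against 3.57, 2.57 and 2.64 in control tumours. Its difference of -0.48 ± 0.32 (adjusted p = 0.360) was -0.16 without control 1, the highest tumour. Its partner Col8a2 had a difference of 0.08 ± 0.14 (adjusted p = 0.742). Col10a1, a chain of hypertrophic cartilage, had a difference of -0.05 ± 0.32 (adjusted p = 0.928).

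Of the 9 FACIT chains, all tested, Col19a1 fell and 8 did not pass the threshold. The share of all genes that fell was 2.75%. The median difference was 0.05, with 4 negative and 5 positive. Collagen IX coats cartilage fibrils, and its 3 chains had positive differences without a call, although that of Col9a1 was negative under several alternatives, at -0.22 without control 2 and -0.01 under normexp among them. Col9a2 read -1.12, -0.59 and -1.06 in miR-124a tumours 1 to 3, against -1.33, -1.12 and -1.43 in control tumours 1 to 3, with a difference of 0.37 ± 0.17 (adjusted p = 0.220). Its groups touched without overlapping, since the lowest miR-124a tumour and the highest control tumour were nearly level. Col9a3 had a difference of 0.24 ± 0.18 (adjusted p = 0.419) on its brightest probe and 0.76 on a dimmer one.

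Col14a1, which binds decorin on tendon and skin fibrils, read -4.77, -4.35 and -4.56 with miR-124a, against -3.50, -3.63 and -4.41 in control tumours. Its groups overlapped through control 3, and the difference was -0.72 ± 0.26 (adjusted p = 0.145) and -0.18 with normexp. The related Col12a1 had a difference of -0.20 ± 0.34 (adjusted p = 0.728), which was 0.14 without control 1. Col16a1 and Col20a1 had differences of -0.07 ± 0.14 (adjusted p = 0.775) and 0.05 ± 0.12 (adjusted p = 0.793). Col22a1, a chain of the muscle-tendon junction, read 1.48, 0.06 and 1.07 with miR-124a, against 0.49, 0.14 and 1.00 in control tumours. Both groups of Col22a1 spread over the same range, and its difference was 0.33 ± 0.40 (adjusted p = 0.620).

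Of the 6 beaded chains 5 were tested, and in limma 0 passed the adjusted threshold, while 2 had an unadjusted p under 0.05. Both were lower with miR-124a, as were 15.9% of all genes at that p. Collagen VI is a heterotrimer of Col6a1, Col6a2 and Col6a3 products, and defects in these genes cause muscular dystrophies in people. Col6a2 read -0.32, -0.21 and -0.61 in miR-124a tumours 1 to 3, against 0.48, 0.62 and 0.19 in control tumours 1 to 3. The groups did not overlap, and the difference was -0.81 ± 0.16 (SE, n = 3 each; limma, adjusted p = 0.0544), which passed under 5 of the 16 other ways of processing, normexp with an adjusted p of 0.0288 among them. Its 3 tested probes gave differences between -0.81 and -0.56. Col6a1, the neighbouring gene on chromosome 10, read 3.63, 3.91 and 3.59 with miR-124a, against 4.43, 4.26 and 4.10 in control tumours, with a difference of -0.55 ± 0.13 (adjusted p = 0.0751). Its groups were separate too.

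The third chain of the same protein behaved less evenly. Col6a3 read 2.28, 2.78 and 2.22 with miR-124a, against 3.15, 2.28 and 2.51 in control tumours, with a difference of -0.22 ± 0.26 (adjusted p = 0.611). Its groups overlapped, its tested probes disagreed in sign (-0.30 to 0.13), and without control 1 the difference was 0.03. The alternative chains Col6a4 and Col6a5, whose genes lie side by side on chromosome 9, had differences of 0.04 ± 0.26 (adjusted p = 0.930) and 0.26 ± 0.22 (adjusted p = 0.466). Col6a6, next to them, cleared background in 0 of 3 miR-124a tumours and in 1 of 3 control tumours and was not tested. It read -7.37, -7.39 and -7.55 with miR-124a, against -5.22, -5.68 and -5.42 in control tumours. The control mean of -5.44 lay below the miR-124a floor of -5.36, so no fold is given. Without the filter on dim probes Col6a6 was the single chain past the threshold.

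All 4 transmembrane chains were tested, and in limma 0 passed the adjusted threshold, while 2 had an unadjusted p under 0.05. These were lower with miR-124a, as were 15.9% of all genes at that p. Col23a1, which can be shed from the cell surface, read -2.19, -2.46 and -2.28 in miR-124a tumours 1 to 3, against -1.64, -1.14 and -1.73 in control tumours 1 to 3. Its groups were separate and the difference was -0.81 ± 0.18 (adjusted p = 0.0646), although its 3 tested probes ranged between -0.81 and -0.21 and the difference was -0.46 under normexp. Col25a1, needed in mouse embryos for motor axons to enter muscle, read -0.83, -0.57 and -0.59 with miR-124a, against 0.22, -0.41 and 0.22 in control tumours, with a difference of -0.67 ± 0.20 (adjusted p = 0.103). Its groups were separate, with control 2 nearest to the miR-124a tumours. Col13a1, found at the neuromuscular junction, read -1.53, -1.43 and -1.33 with miR-124a, against -1.78, -1.54 and -1.76 in control tumours. Its difference of 0.26 ± 0.11 (adjusted p = 0.186) was positive, and its groups were separate by a narrow margin. Col17a1, a hemidesmosome protein of squamous epithelium, had a difference of -0.41 ± 0.27 (adjusted p = 0.360).

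Of the chains outside these types, Col7a1, which forms the anchoring fibrils under skin epithelium, had a difference of -0.18 ± 0.18 (adjusted p = 0.555). It was 0.02 without control 1. Col28a1 was well above background on 0 of 6 arrays and was not tested. Of the 4 tested genes in this group, 2 fell, Col15a1 and Col26a1, against 2.75% of all genes tested.

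**Figure D2:**
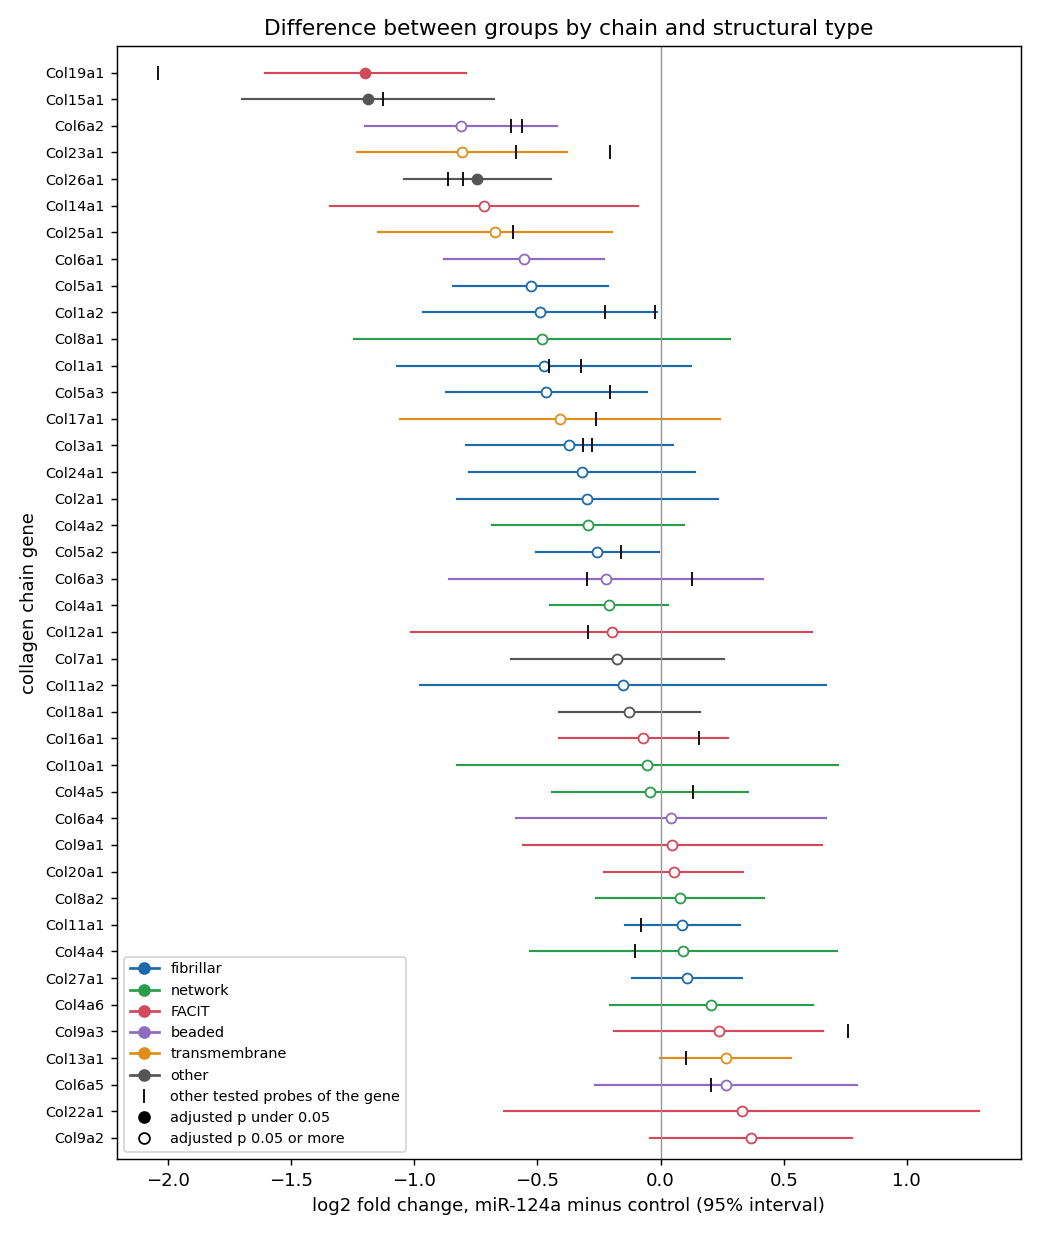
Log2 fold change, miR-124a minus control (x axis), of each of the 41 tested collagen chains (y axis), with its 95% interval from limma and colours for structural type. Filled circles passed the adjusted threshold (Col19a1, Col15a1 and Col26a1, at -1.20 to -0.75), and vertical ticks are other tested probes of the same gene, of which the Col19a1 tick at -2.04 was not above background in any miR-124a tumour.

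Single tumours often stood at the ends of the range. Control 1 had the highest value of the 6 tumours in 20 of 41 chains, and miR-124a 3 the lowest in 14 of 41. Over all genes tested, control 1 was highest for 2618 of 22946 and miR-124a 3 lowest for 2853. Among the fibrillar chains, control 1 was highest in 8 of 11 and miR-124a 3 lowest in 6 of 11. The fibrillar median of -0.32 was -0.23 without control 1 and between -0.47 and -0.23 over the tumours left out in turn. The level of all tested chains summed on the linear scale, in multiples of the array's 75th percentile, was 225.42 to 273.54 in miR-124a tumours, against 285.58 to 415.67 in control tumours. The same sum over all 22946 genes tested was 100993 to 103271, against 108302 to 117311, so it did not overlap between groups either. Bright probes weigh most in such a sum: the fibrillar chains alone, 0 of which passed, gave 162.98 to 202.26 in miR-124a tumours, against 211.59 to 323.18 in control tumours.

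**Figure D3:**
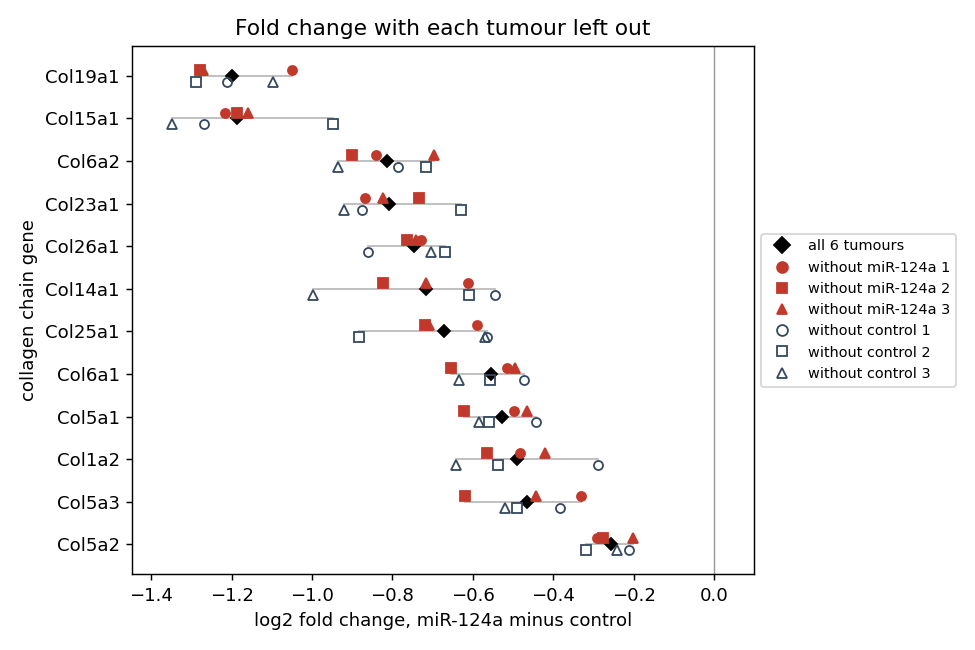
Log2 fold change, miR-124a minus control (x axis), of the 12 chains with an unadjusted p under 0.05 (y axis), over all 6 tumours (black diamonds) and with each tumour left out in turn (red for miR-124a, blue for control). All values stay below 0; Col1a2 moves to -0.29 without control 1 and Col15a1 to -0.95 without control 2.

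Genes that modify, process and cross-link collagen were tested as a list of 34, of which 33 were measured. In it 2 genes fell and 0 rose in limma, with 12 lower and 1 higher at an unadjusted p under 0.05. Over all genes the shares were 2.75% lower and 0.488% higher at the adjusted threshold, and 15.9% lower and 11.4% higher at the unadjusted one. The list's median was -0.21, and -0.27 to -0.15 with 1 tumour left out. That of the chains was -0.21, and -0.31 to -0.16 with 1 tumour left out. Loxl1, a lysyl oxidase that cross-links matrix fibres, read 0.68, 0.87 and 0.87 in miR-124a tumours 1 to 3, against 1.59, 1.90 and 1.54 in control tumours 1 to 3, with a difference of -0.87 ± 0.13 (adjusted p = 0.0317). Tmem38b, a channel of the endoplasmic reticulum whose loss causes brittle bones in people, read -3.52, -3.55 and -2.79 with miR-124a, against -2.05, -1.60 and -2.00 in control tumours, with a difference of -1.41 ± 0.24 (adjusted p = 0.0405) that was -0.65 under normexp. Both were lower in all 3 miR-124a tumours than in any control tumour. The collagen chaperone Serpinh1 had a difference of -0.31 ± 0.11 (adjusted p = 0.139), -0.16 under normexp, and the procollagen C-proteinase enhancer Pcolce -0.59 ± 0.12 (adjusted p = 0.0605).

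Collagen receptors and enzymes of collagen breakdown gave no call. Beside the counts that follow, 2.75% of all genes fell and 0.488% rose, and 15.9% were lower and 11.4% higher at an unadjusted p under 0.05. Of 10 receptor genes 8 were tested, 3 with a negative and 5 with a positive difference and a median of 0.05, and 1 had an unadjusted p under 0.05. That was Itgb1, the beta subunit shared by collagen-binding integrins, at -0.54 ± 0.10 (limma, adjusted p = 0.0521). All 9 genes of breakdown and its inhibitors had negative differences, with a median of -0.29, 3 of them at an unadjusted p under 0.05, and the lowest adjusted p was 0.0748 for the collagenase Mmp13 (-0.53 ± 0.13, and -0.14 under normexp). Leaving out 1 tumour moved the receptor median between -0.06 and 0.21 and the breakdown median to -0.10 without control 1. Of 15 partners of collagen IV in basement membranes, all tested, 1 fell, 0 rose and the median was -0.31, or -0.12 without control 2. At an unadjusted p under 0.05 in limma, 7 of these 15 were lower and 1 higher with miR-124a. Lama2, the laminin chain of muscle and nerve basement membranes, read 1.58, 1.49 and 1.50 with miR-124a, against 2.07, 2.24 and 2.39 in control tumours, with a difference of -0.71 ± 0.11 (adjusted p = 0.0339). Its groups were well apart. The perlecan gene Hspg2 had a difference of -0.66 ± 0.15 (adjusted p = 0.0725).

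Markers of cell types that make collagens were measured beside the chains. For comparison, 2.75% of all genes tested fell and 0.488% rose, and at an unadjusted p under 0.05 15.9% were lower and 11.4% higher. Of 8 skeletal muscle markers 7 fell and all 8 had negative differences, with a median of -1.67, and their summed level was 147.86 to 229.02 in miR-124a tumours, against 371.55 to 572.48 in control tumours, in multiples of the 75th percentile. Control 2 was the highest tumour for all 8 of them. It was highest for 8 of 41 chains, Col15a1 and Col26a1 among them, while Col19a1 was highest in control 3 and lowest among control tumours in control 2. Over all genes tested, control 2 was highest for 5782 of 22946. Smooth muscle markers fell for 3 of 6, with summed levels of 27.35 to 30.65 with miR-124a, against 49.66 to 59.51 in control tumours. Schwann cell markers fell for 1 of 5, Erbb3 (-0.996 ± 0.18, adjusted p = 0.0469), with summed levels of 12.06 to 13.22 with miR-124a, against 16.48 to 21.99 in control tumours. Osteoblast markers had negative differences in 7 of 7 genes without a call (median -0.33, 1 with an unadjusted p under 0.05), with summed levels of 0.823 to 0.895 with miR-124a, against 1.077 to 1.101 in control tumours. Parietal endoderm markers, of a tissue rich in basement membrane, had negative differences in 5 of 6 genes without a call (median -0.34, 2 with an unadjusted p under 0.05), with summed levels of 2.15 to 2.32 with miR-124a, against 2.57 to 2.74 in control tumours. Neuron markers had positive differences in 7 of 7 genes without a call (median 0.44, 5 with an unadjusted p under 0.05), with summed levels of 134.46 to 165.78 with miR-124a, against 101.71 to 117.66 in control tumours. The summed levels of the groups did not overlap in any of these lists. They did not overlap over all 22946 genes tested either, at 100993 to 103271 with miR-124a, against 108302 to 117311 in control tumours.

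Fibroblast and mesenchyme markers differed less as a list. The shares of all genes to set beside the counts here were again 2.75% lower and 0.488% higher, or 15.9% and 11.4% at the unadjusted p. Of 8 genes, 1 fell, the transcription factor Prrx1 (-0.86 ± 0.09, adjusted p = 0.0210), the median was -0.02 (-0.05 to 0.11 with 1 tumour left out), and the summed levels overlapped at 69.95 to 77.50 with miR-124a, against 66.62 to 90.11 in control tumours. Control 1 was highest for 6 of these 8 markers and for 8 of 11 fibrillar chains, against 2618 of 22946 genes over all genes tested. Of 9 cartilage markers 7 were tested and Matn1 and Matn3 were not above background on any array. In limma 0 cartilage markers passed, 2 had an unadjusted p under 0.05, both higher with miR-124a, and the summed levels were 3.69 to 3.97 with miR-124a, against 2.86 to 3.51 in control tumours. Endothelial markers (0 of 7 passed in limma, 1 with an unadjusted p under 0.05, median -0.08) and keratinocyte markers (0 of 6 tested, 0, median -0.50) gave no call. With 1 tumour left out these medians moved between -0.24 and -0.01 for endothelium, and between -0.83 without miR-124a 3 and -0.24 without miR-124a 2 for keratinocytes. The part of any of these cell types in the chain values was not tested.

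**Figure D4:**
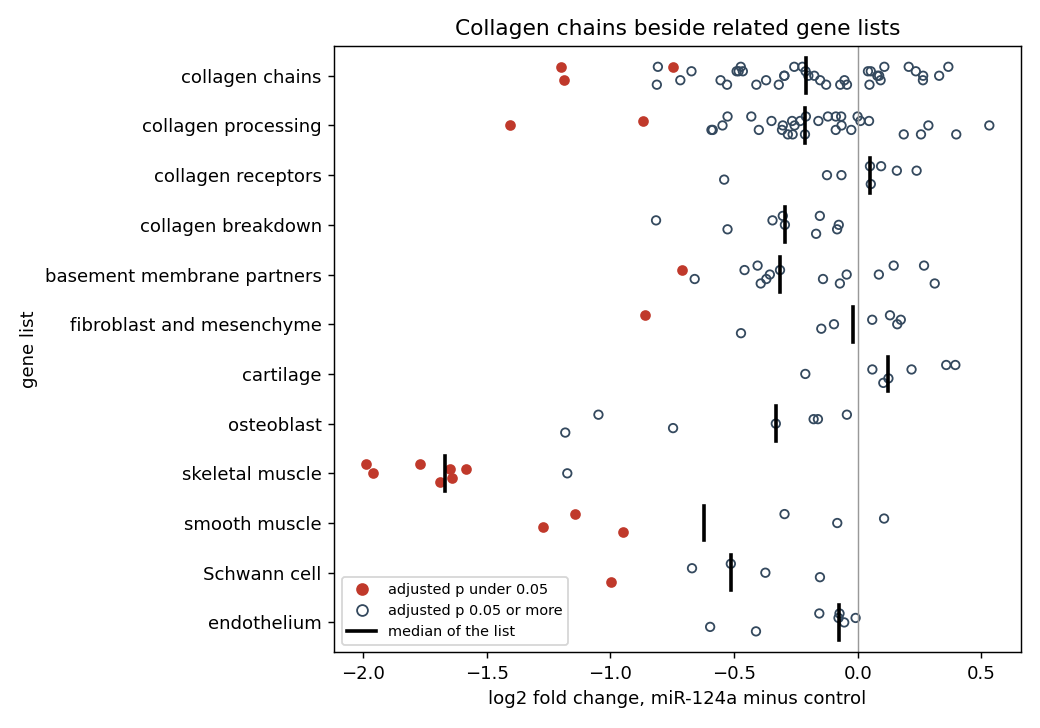
Log2 fold change, miR-124a minus control (x axis), of every tested gene in the collagen chain list and in related gene and marker lists (y axis), with filled red points for adjusted p under 0.05 and a black bar for the list's median. The chain median is -0.21, the skeletal muscle median -1.67 and the fibroblast and mesenchyme median -0.02.

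All 6 arrays lay on 1 slide with 1 scan, the miR-124a tumours in slide row 2 and the control tumours in slide row 1, so row and group cannot be told apart. Between 63.4% and 65.9% of probes were well above background per array, and the array's 75th percentile lay between 278.6 and 315.2 intensity units. Array correlations were 0.988 to 0.992 among miR-124a tumours, 0.986 to 0.989 among control tumours and 0.970 to 0.987 between the groups. Markers of skeletal muscle, neurons, simple epithelium and endothelium were all detected, at 8 of 8, 7 of 7, 6 of 6 and 7 of 7 genes tested.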

How the data were processed

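Total RNA of 6 tumours, 3 miR-124a and 3 control, was measured on 1-colour Agilent arrays after Cy3 labelling, per the labels' protocols. Spot intensity values are those of the deposited scanner files, corrected for background by Agilent Feature Extraction 11.5.1.1 per the file headers and not scaled between arrays. The value table deposited by the authors holds log2 values with a 75th percentile of 0 per array and medians of -2.97, -2.99 and -2.98 (miR-124a 1 to 3) and -2.98, -3.07 and -2.98 (control 1 to 3), and differs from the scanner log2 values by a constant per array (SD 0.0029). Its probes are uncentred, higher values mean more signal, and no source used here names the tool behind it.

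Control spots and 22 outlier probes were left out and spots of 1 probe averaged, leaving 56605 probes before the outliers were removed. A probe entered the test when all 3 arrays of either group had it well above background, and the brightest such probe stood for its gene; 21 chains had several tested probes, and for 5 these disagreed in sign. Gene names follow the GRCm38.p6 RefSeq table, where all 44 chains matched, and positions of probes come from the annotation inside the scanner files (mm9). The test was limma's (3.58.1, R 4.3.3; lmFit and eBayes, no covariates), its p-values were adjusted by Benjamini-Hochberg for 22946 genes, the threshold was 0.05, and the procedure was tested on simulated data. There it called 73.0% of genes changed 2-fold and 93.0% of those changed 4-fold, so differences of 2-fold or less, and some of 4-fold, can be missed. The simulated noise was drawn independently for each gene and array. Where a whole group was below background, the fold given is a bound, taken from the lowest signal well above background. A summed level adds a list's linear signals per array. Precision is limited by the number of arrays. Each array is a tumour of a different mouse, per the labels.

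The rule for named genes took every chain past the threshold, the chains with the smallest p and the largest difference of each type, and their partners in the same protein; the remaining chains are given with shorter values to account for all members. The members, lists and types were chosen with earlier results of these data known. The normexp alternative used an offset of 50 and quantile scaling between arrays. The offset by itself shrinks differences of dim probes, so smaller values under normexp do not measure background alone. Figures were drawn with matplotlib 3.10.9.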

Additional observations from a re-analysis of the deposited data

How the results depend on the processing

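Against 3 chains lower with miR-124a in all, the count was 7 with a variance trend and robust estimation, 1 without the filter on dim probes, and 0 with the replicate number as a block, with no variance moderation or with any 1 tumour left out. Counts lower were 1 fibrillar, 2 beaded and 1 transmembrane with the variance trend; 1 beaded under normexp, no dim-probe filter, all 6 arrays above background, mean of probes or array weights; and 0 FACIT and 0 other chains without the dim-probe filter, with the block, without moderation or with 1 tumour left out. Collagen processing gave 4 lower under normexp and under the variance trend, 0 without the filter, with the block or without moderation, and 0 to 1 with 1 tumour left out. Basement membrane partners gave 3 lower under normexp and the variance trend, 0 without the filter, with the block, without moderation or with 1 tumour left out, and 1 higher under normexp. Collagen receptors gave 1 lower under normexp, all 6 arrays, mean of probes and the variance trend.

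Over all genes, 630 fell and 112 rose. These counts were 963 and 579 under normexp, 77 and 19 without the filter (37001 genes), 1344 and 379 with the variance trend, and 0 and 0 with the block or without moderation. With 1 tumour left out 0 to 357 fell and 0 to 62 rose, the least being 0 and 0 without miR-124a 2 or control 2. Quantile scaling gave 190 higher. The labels only number the tumours within each group. Deviations of tumours with the same number correlated at -0.16, -0.04 and -0.06. Tumours with different numbers were not compared, so pairing by number was not tested.

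Signs changed only for chains without a call. Col4a4 was -0.0059 with the mean of probes and -0.051 with array weights, and Col4a5 was 0.044 and 0.030. Col9a1 was -0.011 under normexp and -0.051 with weights, Col6a4 was -0.049 and -0.085, and Col16a1 was 0.031 under normexp and 0.043 with the mean of probes. Over the tumours left out in turn the differences spanned -0.46 to 0.24 for Col11a2, -0.077 to 0.39 for Col4a4, -0.17 to 0.059 for Col4a5, -0.048 to 0.15 for Col8a2, -0.33 to 0.30 for Col10a1, -0.22 to 0.20 for Col9a1, -0.52 to 0.14 for Col12a1, -0.21 to 0.027 for Col16a1, -0.036 to 0.15 for Col20a1, -0.41 to 0.029 for Col6a3, -0.23 to 0.20 for Col6a4 and -0.29 to 0.023 for Col7a1. With the authors' value table or quantile scaling the same 3 chains passed. The cause of these changes was not tested. With 1 tumour left out, the smaller number of tumours cannot be told apart from the choice of tumour removed. Signal near background limits Col4a3, Col28a1 and Col6a6.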

Other observations

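Proteins that hold a collagen-like repeat without being collagen chains were looked at as a list of 33 genes chosen after the chain values had been seen, so its values are a description. Of these, 26 were tested, 3 fell with miR-124a and 0 rose in limma, with 4 lower and 2 higher at an unadjusted p under 0.05, and the median difference was -0.10 (-0.20 to -0.04 with 1 tumour left out). Among all genes tested 2.75% fell and 0.488% rose, and at the unadjusted p 15.9% were lower and 11.4% higher. Colq, the collagen-like tail that anchors acetylcholinesterase at the neuromuscular junction, read -1.63, -1.45 and -1.36 in miR-124a tumours 1 to 3, against -0.42, -0.27 and -0.65 in control tumours 1 to 3, with a difference of -1.03 ± 0.13 (SE, n = 3 each; adjusted p = 0.0242). Emilin1, an elastic fibre protein, read -5.12, -5.13 and -4.90 with miR-124a, against -3.68, -3.78 and -3.60 in control tumours, with a difference of -1.36 ± 0.11 (adjusted p = 0.0165) that was -0.32 under normexp. C1qtnf3, a secreted relative of complement C1q, read -1.21, -0.78 and -0.88 with miR-124a, against 0.56, 0.22 and -0.18 in control tumours, with a difference of -1.16 ± 0.21 (adjusted p = 0.0474). For all of them every miR-124a tumour lay below every control tumour. The macrophage scavenger receptor Marco had the largest positive difference of the 26 tested genes, 0.92 ± 0.18 (adjusted p = 0.0514), which was 0.15 under normexp, and did not pass the threshold.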
